A study of Mus musculus with 6 samples.

Results

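Genes of the extracellular matrix and of cell adhesion were examined in mouse myotubes after knockdown of H19, an imprinted long noncoding RNA that is abundant in embryonic muscle. C3H cells are a line of mouse myoblasts, which fuse to multinucleated myotubes in differentiation medium. The myotubes were transfected with a control siRNA (siCon) or with an siRNA against H19 (siH19) 40 h after differentiation was started, and total RNA was taken 48 h later. The experiment had 3 libraries per group, and both groups received siRNA and the same differentiation protocol. The table analysed here held 1 FPKM value per group (fragments scaled to transcript length and to the mapped fragments of the library, on a log2 scale), pooled over the 3 libraries by the authors, for 3019 gene features that they had called as different. Of these, 2549 carried a gene symbol. The members were the 59 features with a symbol of a collagen, laminin, nidogen, perlecan, fibronectin, fibrillin, fibulin, elastin, lysyl oxidase, SPARC, periostin, tenascin C, ADAM or ADAMTS protein, MMP, TIMP, integrin, cadherin, protocadherin, decorin, lumican, biglycan or serpin. Together they carried 60 matching symbols.

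The matrix around a muscle fibre is a basement membrane of laminin and collagen IV, joined to an outer layer of fibrillar collagens, collagen VI and proteoglycans. Fibronectin and the matricellular proteins tenascin C and periostin are prominent in this matrix while muscle forms or regenerates. Integrins are paired alpha and beta chains that hold the cell to matrix, cadherins hold cells to each other, and the metalloproteinases (ADAM, ADAMTS and MMP proteins) cut matrix and surface proteins, with TIMPs as their inhibitors. The serpins are mostly inhibitors of serine proteases, and several of them have no known role in the matrix.

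H19 itself was at 11.20 log2 FPKM in siCon and 7.5 in siH19, or 2353 and 181 FPKM, so that 7.69% of the control level was left. With 1 pooled value per group, no spread between libraries, no standard error and no test could be computed for this or any value below, and the depth of the libraries was unknown. Every difference given is the siH19 value minus the siCon value in log2 FPKM, and "higher" and "lower" refer to the siH19 group. Because the table listed only features that had been called, every member differs by construction, and the smallest difference of a member was 0.34 in size. In a bulk culture, fewer cells of a type and less RNA per cell cannot be told apart.

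Of the 59 members, 47 (79.7%) were higher and 12 were lower in siH19. Among all 3019 listed features, 62.8% were higher. At a fold of at least 1.5, 24 members (40.7%) were higher, beside 37.4% of all listed features, and 6 members (10.2%) were lower, beside 16.9%. Among the listed features with a symbol, as all members have, 30.8% were higher and 16.3% lower by this fold. The remaining 29 members differed by less than 1.5-fold. Of the 30 members past 1.5-fold, 24 (80.0%) were higher, with an exact binomial 95% interval over features of 61.4 to 92.3%, and for all listed features with a symbol the share was 65.4%. Such an interval treats features as draws and says nothing of variation among cultures. The table as a whole was tilted the same way, with a median difference of 0.41 over the features with a symbol against 0.50 over the members. When this 0.41 was subtracted from every value, 9 members were higher and 12 lower by 1.5-fold, or 42.9% higher. Without a fold limit, 38 members then lay above the listed median, 3 on it and 18 below it.

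**Figure D1:**
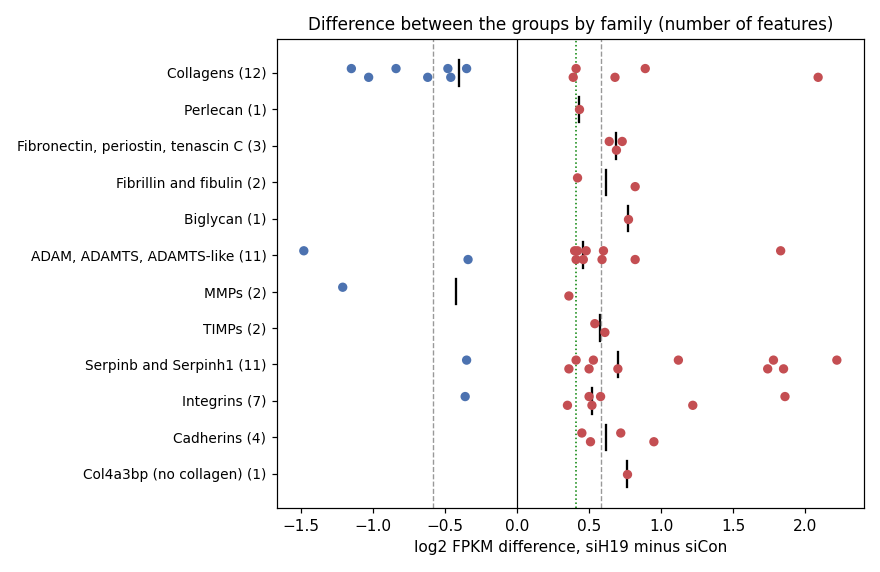
Differences in log2 FPKM, siH19 minus siCon, of the members named in the text on the horizontal axis, by family on the vertical axis. Each point is 1 gene feature with 1 pooled value per group, black bars are family medians, dashed grey lines mark 1.5-fold and the green dotted line the median of the listed features with a symbol. The collagens reach from -1.15 to 2.09 around a median of -0.41, whereas the 10 Serpinb features lie between 0.36 and 2.22.

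The members' summed level was 2355 FPKM in siCon and 3094 FPKM in siH19, a ratio of 1.31, and the sum over all listed features had a ratio of 1.29. Only a few genes carried this sum. Fn1, Itgb1, Serpinh1, Timp2 and Bgn made up 65.0% of it in siCon. Fn1 alone added 214 FPKM, Timp2 122, Bgn 117 and Itgb1 98.0, whereas Serpinh1 was lower by a difference of -76.4 FPKM. At the other end, 7 members (Cdh10, Col26a1, Itga9, Itga11, Mmp10, Serpinb6c and Serpinb9e) were below 1 FPKM in both groups, and their fold differences rest on little RNA.

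Among the structural proteins, the fibronectin group gained the most in FPKM. Fn1 encodes fibronectin, the glycoprotein that links collagen to integrins, and lies on chromosome 1 from 71585473 to 71653248. It was the most abundant member, at 8.58 log2 FPKM (383 FPKM) in siCon and 9.22 (596 FPKM) in siH19, 1.56-fold higher. Tnc, which encodes tenascin C, a glycoprotein of embryonic and regenerating matrix, was at 5.03 and 5.76, 1.66-fold higher. Postn, encoding periostin, a collagen-binding matricellular protein, was at 4.74 and 5.43, 1.61-fold higher. All 3 listed genes of this group passed 1.5-fold, and all stayed above the median of the listed features, whereas Sparc and Sparcl1 were not listed. Their summed level went from 442.1 to 693.6 FPKM, a ratio of 1.57. Bgn, the gene of biglycan, a small leucine-rich proteoglycan that binds collagen and is found at the muscle membrane, stood at 7.38 in siCon and 8.15 in siH19, 1.71-fold higher. Its relatives Dcn and Lum were not listed.

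The genes Fbn1, Fbln5 and Hspg2 were higher as well and stayed above the listed median after centring. Fbn1 encodes fibrillin-1, the main protein of microfibrils, and was at 4.30 in siCon and 5.12 in siH19, a difference of 0.82. Fbln5, whose product fibulin-5 takes part in elastic fibre assembly, was at 2.23 and 2.65. Hspg2, the gene of the basement membrane proteoglycan perlecan, was at 5.01 and 5.44. Fbln5 and Hspg2 differed by less than 1.5-fold. An exonic share of 20.1% of Fbn1 overlaps an annotated gene on the other strand, and since the strand setting of the counting was not stated, its value may hold reads of that gene.

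**Figure D2:**
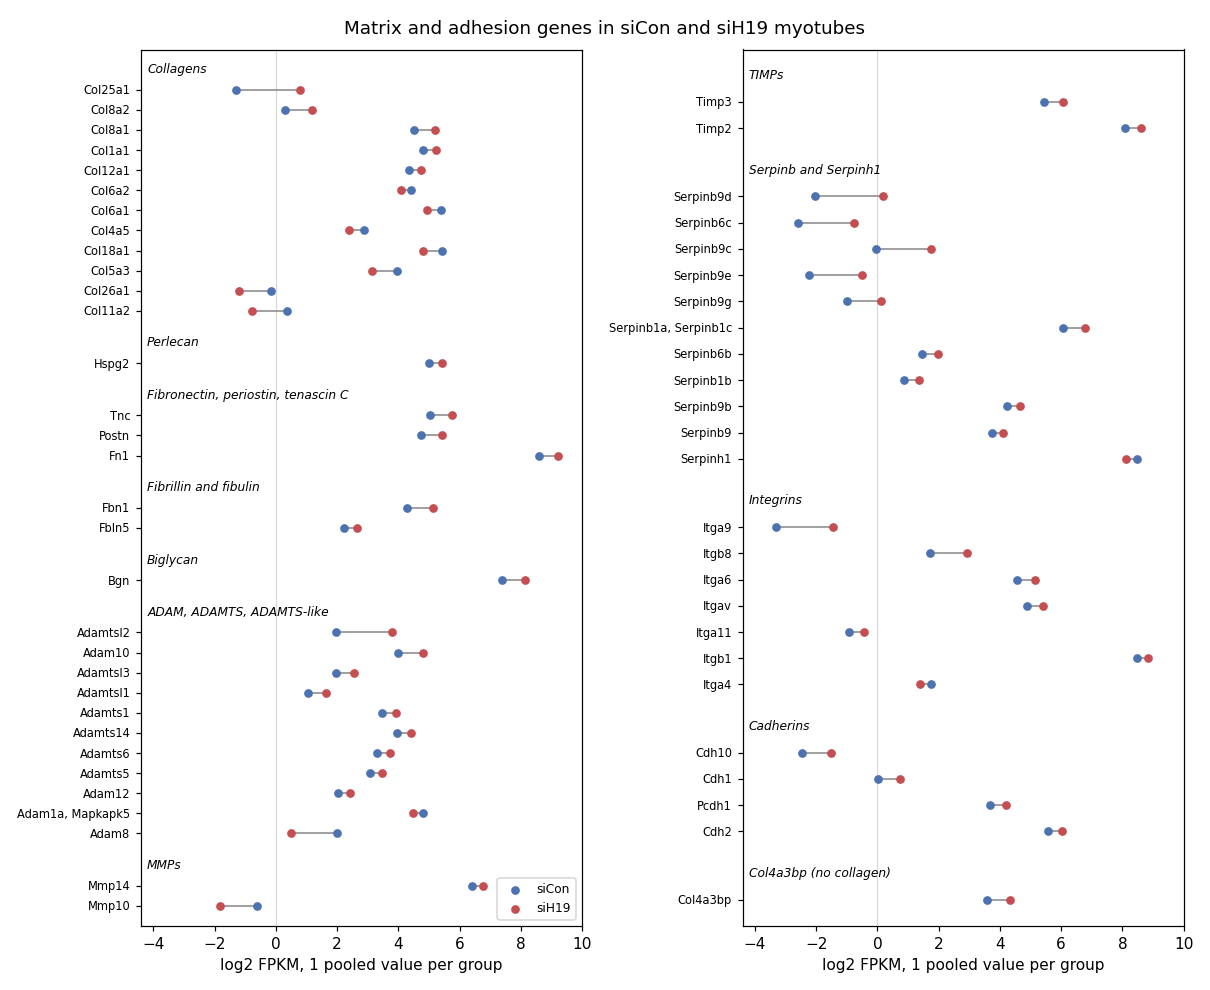
Pooled levels of the members named in the text in log2 FPKM on the horizontal axis, with genes on the vertical axis grouped by family, siCon in blue and siH19 in red. Each group has 1 pooled value and therefore no error bar, and the levels reach from -3.30 (Itga9, siCon) to 9.22 (Fn1, siH19).

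The collagens were split. Of 12 listed, 5 were higher and 7 lower, with 3 and 4 of these past 1.5-fold, and their median difference was -0.41, on the other side of 0 from the members as a whole. Their summed level stayed close, at 204.8 FPKM in siCon and 195.2 FPKM in siH19. After centring, 3 lay above the listed median, Col1a1 lay on it, and the other 8 lay below it, Col12a1 among them. By fold, the collagen that stood furthest above the control was Col25a1, on chromosome 3 from 130180845 to 130599883. It encodes a collagen that spans the cell membrane and is needed in developing muscle for its innervation by motor axons. Its level was -1.31 in siCon and 0.78 in siH19, or 0.403 and 1.72 FPKM, 4.26-fold higher, the 23rd highest difference among the 2549 listed features with a symbol. Col8a2 and Col8a1, the chains of the network-forming collagen VIII, were both higher, Col8a2 from 0.30 to 1.19 and the more abundant Col8a1 from 4.51 to 5.19. Col1a1, a chain of fibrillar collagen I, was at 4.81 and 5.22, and Col12a1, whose product associates with collagen I fibrils, at 4.36 and 4.75, both under 1.5-fold.

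The lower collagens held both abundant and scarce genes. Col18a1, the gene of a basement membrane collagen that carries heparan sulphate and releases endostatin, was at 5.42 in siCon and 4.80 in siH19, 1.54-fold lower. Col6a1 and Col6a2 encode chains of collagen VI, the beaded microfibril whose loss causes muscular dystrophy. Col6a1 was at 5.40 and 4.94 and Col6a2 at 4.43 and 4.08, both lower by less than 1.5-fold. These 3 genes are neighbours on chromosome 10, between 76595756 and 77166530, with 85388 bp between Col6a2 and Col6a1 and 326000 bp between Col6a1 and Col18a1. Col6a3, the third chain of the common form, was not listed. Col5a3, a chain of collagen V, which regulates fibril assembly, was at 3.97 and 3.13, 1.79-fold lower. Col11a2, from the related collagen XI, was at 0.38 and -0.77, 2.22-fold lower, and Col26a1 at -0.16 and -1.19, both close to or below 1 FPKM. Col4a5, a chain of basement membrane collagen IV, was at 2.88 and 2.40, under 1.5-fold. Serpinh1 encodes HSP47, the chaperone that binds procollagen in the endoplasmic reticulum, and was lower in siH19, at 8.47 in siCon and 8.12 in siH19, or 355 and 278 FPKM. In the mouse annotation, 44 coding genes have a collagen symbol, so that 32 were not listed, Col1a2, Col3a1, Col4a1 and Col4a2 among them. A gene can be missing because its difference was not called or because it was not tested.

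Among the proteases, the ADAMTS proteins and the ADAMTS-like proteins, which share their domains but lack the catalytic one, were all higher. Their 7 genes together went from 54.58 FPKM in siCon to 83.93 FPKM in siH19, with a median difference of 0.48, and after centring 6 lay above the listed median and Adamts5 on it. Adamtsl2 stood out, at 1.98 log2 FPKM in siCon and 3.81 in siH19, 3.56-fold higher (3.94 and 14.0 FPKM). Its product binds fibrillin-1, and its gene lies on chromosome 2 from 27079381 to 27109079. Adamtsl3 was at 1.95 and 2.55 and Adamtsl1 at 1.04 and 1.63, both just past the limit at 1.52-fold and 1.51-fold. The catalytic members all differed by less than 1.5-fold. Adamts1 and Adamts5, proteases of aggrecan and versican whose genes lie 52829 bp apart on chromosome 16, were at 3.46 and 3.94 and at 3.06 and 3.47. Adamts14, a procollagen N-propeptidase, was at 3.95 and 4.41, and Adamts6 at 3.31 and 3.73.

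The 4 features of membrane-bound ADAM proteases were split, 2 higher and 2 lower. Adam10, a sheddase of Notch and of cadherins, was at 3.98 in siCon and 4.80 in siH19, 1.77-fold higher. Adam12, also known as meltrin alpha and linked to myoblast fusion, was at 2.03 and 2.43 and lay just below the listed median after centring. Adam8, a sheddase best known from leukocytes, was at 1.99 and 0.51, 2.79-fold lower, the 50th lowest difference among the features with a symbol. The feature that holds Adam1a was at 4.81 and 4.47, but it also holds the kinase gene Mapkapk5, and 63.7% of the exonic bases of Adam1a are shared with another gene of the same strand, so that its value cannot be given to Adam1a. Of 22 annotated MMP genes 2 (9.09%) were listed, beside 60 of 347 (17.3%) over all the families. Mmp14, the membrane-type protease that activates MMP-2, was at 6.41 and 6.77 (85.0 and 109 FPKM), and Mmp10, encoding stromelysin-2, at -0.60 and -1.81, 2.31-fold lower at a level under 1 FPKM. Mmp14 is on the higher side as deposited and on the lower side after centring.

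Both listed inhibitors of metalloproteinases were higher, also after centring. Timp2, whose product takes part with MMP-14 in the activation of MMP-2, was at 8.07 log2 FPKM in siCon and 8.61 in siH19, or 269 and 391 FPKM, 1.45-fold higher. Timp3, encoding the TIMP that is bound to the matrix, was at 5.44 and 6.05, just past the limit at 1.53-fold higher. Of its exonic bases, 21.3% overlap an exon of Syn3 on the other strand. The Timp3 feature runs from 86048746 to 86498896 on chromosome 10, beyond the annotated gene (86300372 to 86349506) at each end. Its value may therefore hold reads from outside Timp3. The summed level of the pair went from 312.1 to 457.0 FPKM. Timp1 and Timp4 were not listed.

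**Figure D3:**
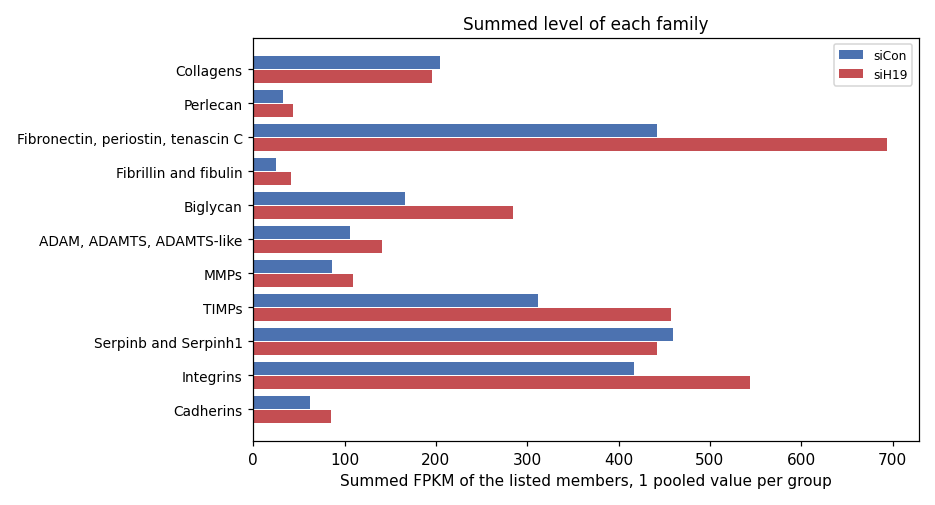
Summed FPKM of the members named in the text, by family, on the horizontal axis, siCon in blue and siH19 in red, with bars that start at 0 and no error bar because each gene has 1 pooled value per group. The fibronectin group goes from 442.1 to 693.6 FPKM and the TIMPs from 312.1 to 457.0 FPKM, whereas the collagens go from 204.8 to 195.2 FPKM and the Serpinb genes with Serpinh1 go from 460.1 to 442.0 FPKM.

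Clade B, the intracellular serpins, was listed with 10 features. All 10 were higher, and after centring 8 lay above the listed median, Serpinb9b on it and Serpinb9 below it. They stood at a median difference of 0.91, beside 0.41 for the listed features with a symbol, and a summed level of 105.5 FPKM in siCon and 163.8 FPKM in siH19. They all lie in 1 cluster on chromosome 13, from 32842092 to 34002794, that holds 15 annotated Serpinb genes within 1.16 Mb. Of these, 11 genes were listed, in 10 features, and Serpinb9f, Serpinb6d, Serpinb6e and Serpinb6a were not. Serpinb genes elsewhere in the genome were not listed either.

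**Figure D4:**
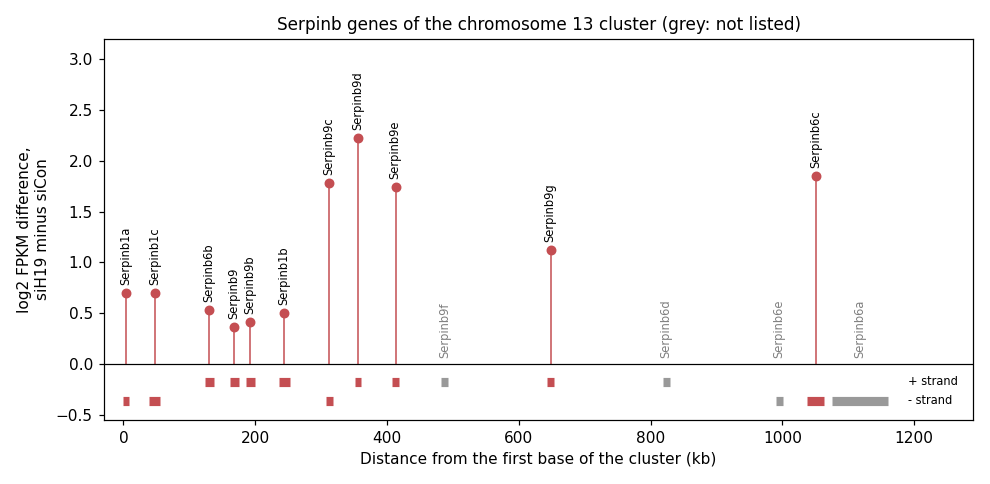
Difference in log2 FPKM, siH19 minus siCon, of the Serpinb genes on the vertical axis against the distance from the first base of the cluster in kb on the horizontal axis. Points are 1 pooled value per gene feature, with Serpinb1a and Serpinb1c sharing 1 feature, bars below 0 show the annotated genes by strand and grey marks genes that were not listed. The tall points are Serpinb9c, Serpinb9d, Serpinb9e, Serpinb9g and Serpinb6c, at 1.12 to 2.22, and all listed genes lie above 0.

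Of the cluster, 5 features were at 1 FPKM or more in siCon, and they differed by less than those under it. Serpinb1a and Serpinb1c, relatives of the human inhibitor of neutrophil elastase, formed 1 feature at 6.06 log2 FPKM in siCon and 6.76 in siH19, 1.62-fold higher. Serpinb9b was at 4.24 and 4.65 and Serpinb9, whose human counterpart inhibits granzyme B, at 3.73 and 4.09. Serpinb6b was at 1.44 and 1.97 and Serpinb1b at 0.85 and 1.35. These 4 differed by less than 1.5-fold, and Serpinb9 lay below the listed median after centring. The other 5 differed by more. Serpinb9d was at -2.05 in siCon and 0.17 in siH19, or 0.241 and 1.13 FPKM, 4.66-fold higher and the 20th highest difference among the features with a symbol. Serpinb9c was at -0.04 and 1.74, 3.43-fold higher, Serpinb9e at -2.25 and -0.51, 3.34-fold higher, and Serpinb9g at -1.0 and 0.12, 2.17-fold higher. Serpinb6c was at -2.61 and -0.76, 3.61-fold higher. All 5 were under 1 FPKM in siCon, and after 1 FPKM was added to both groups the folds of such genes shrink.

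Reads cannot be divided among some of these genes with certainty. Serpinb9c, Serpinb9d and Serpinb9e were given 1 common locus, 33145424 to 33335366, that also spans the unlisted Serpinb9f. Serpinb9c is on the minus strand and the other 3 are on the plus strand. Of its 1086 coding stretches of 76 bases, 0 are in the coding sequence of Serpinb9d, Serpinb9e, Serpinb9f or Serpinb9g. Of all stretches of 76 bases, the read length, in the coding sequence of Serpinb9g, 39.2% are also in that of Serpinb9f, and 9.47% of those of Serpinb9d are in Serpinb9e. Over all exons, 44.5% of the stretches of Serpinb9g are also in another annotated gene, Serpinb9f and Gm11397 among them. For Serpinb9c the share was 16.9%, in Gm11385. One stretch is shown because a read of it fits 3 genes alike. It is letter for letter the same in Serpinb9e, Serpinb9f and Serpinb9g at coding bases 139 to 214, and in Serpinb9e it lies across an exon junction within chr13:33251724-33252912 (GRCm38, plus strand).
Serpinb9e, Serpinb9f and Serpinb9g: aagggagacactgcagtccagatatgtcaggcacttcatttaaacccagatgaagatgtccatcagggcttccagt

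The regions ahead of Serpinb9d, Serpinb9e and Serpinb9g are also alike, and they are shown because these related genes were all higher. The 250 bases before the gene start are from RefSeq (GRCm38.p6, all on the plus strand), with TGACGT, the core of the cyclic AMP response element, in capitals. Positions are chr13:33192705-33192954 for Serpinb9d, chr13:33249358-33249607 for Serpinb9e and chr13:33484540-33484789 for Serpinb9g.
Serpinb9d: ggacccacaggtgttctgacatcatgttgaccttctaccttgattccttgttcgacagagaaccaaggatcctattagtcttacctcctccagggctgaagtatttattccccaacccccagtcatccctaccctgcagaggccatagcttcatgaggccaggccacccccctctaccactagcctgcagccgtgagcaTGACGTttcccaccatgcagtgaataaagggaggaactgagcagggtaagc
Serpinb9e: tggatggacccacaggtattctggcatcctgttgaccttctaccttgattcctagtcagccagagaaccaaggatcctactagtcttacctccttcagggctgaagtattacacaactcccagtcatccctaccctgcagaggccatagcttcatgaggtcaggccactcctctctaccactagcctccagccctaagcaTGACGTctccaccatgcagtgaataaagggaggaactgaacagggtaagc
Serpinb9g: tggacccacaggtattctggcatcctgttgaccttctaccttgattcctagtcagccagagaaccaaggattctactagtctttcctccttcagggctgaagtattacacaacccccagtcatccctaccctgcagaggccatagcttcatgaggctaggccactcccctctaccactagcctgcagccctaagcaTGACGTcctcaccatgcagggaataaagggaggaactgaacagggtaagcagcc
Aligned, the promoter of Serpinb9d was 91.8% identical to that of Serpinb9e and 91.4% to that of Serpinb9g. The promoter of Serpinb9f, which was not listed, was 99.1% identical to that of Serpinb9e and 95.4% to that of Serpinb9g. TGACGT begins 51, 50 and 54 bases before the start in Serpinb9d, Serpinb9e and Serpinb9g. It was in 1 of the 2 promoters of Serpinb9c and not in that of Serpinb6c, both of which were higher by more than Serpinb9g. On either strand, it was found in 4 of 12 Serpinb promoters (33.3%), 5 of 51 members' promoters (9.80%) and 6.47% of all 32851 promoters of this length. The 4 are the related promoters of Serpinb9c, Serpinb9d, Serpinb9e and Serpinb9g, which are also among the 5. They are therefore not independent cases. The E-box CANNTG, the motif of MyoD and myogenin, was in 58.3% of the Serpinb promoters, 56.9% of the members' and 66.2% of all. The GC box GGGCGG was in 16.7%, 56.9% and 32.7%, and TATAAA in 8.33%, 15.7% and 12.4%. The motifs were picked with the values already known, and matches of different motifs may overlap. Promoters were matched for 44 of the 60 member symbols.

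Of 7 listed integrin genes, 6 (85.7%) were higher, beside 60.1% of the listed features with a symbol. At 1.5-fold, 2 (28.6%) were higher, beside 30.8%. Of the 6 higher integrin genes, 5 lay above the listed median after centring, all but Itgb1. Itgb1, on chromosome 8 from 128685386 to 128733579, encodes the beta-1 chain, the common partner of the alpha-4, alpha-6, alpha-9, alpha-11 and alpha-v chains. It was at 8.48 log2 FPKM in siCon and 8.83 in siH19, or 357 and 455 FPKM, 1.27-fold higher. Itgb8 and Itgav encode the chains of a receptor that binds latent TGF-beta. Itgb8 was at 1.70 and 2.92, 2.33-fold higher, and Itgav at 4.87 and 5.39, 1.43-fold higher. Itga6, a chain of laminin receptors, was at 4.55 and 5.13, 1.49-fold higher and so just short of the limit. Itga9, whose product binds tenascin C, was at -3.30 and -1.44, 3.63-fold higher, but at only 0.102 and 0.369 FPKM. Itga11, a chain of a collagen receptor, was at -0.93 and -0.43. The lower gene was Itga4, whose product binds fibronectin and VCAM-1, at 1.75 and 1.39. Its feature runs to 79428988, past the annotated gene end at 79333123. Of its exonic bases, 8.04% overlap Cerkl on the other strand, so its value may hold other reads. Itga7, the main laminin-binding alpha chain of mature muscle, and Itga5, the alpha chain of the classical fibronectin receptor, were not listed.

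Of 91 annotated cadherin and protocadherin genes, 4 (4.4%) were listed, beside 60 of 347 (17.3%) over all the families. These 4 were all higher, beside 60.1% of the listed features with a symbol, and all stayed above the listed median after centring. Their summed level was 61.61 FPKM in siCon and 85.31 FPKM in siH19. Cdh2, the gene of N-cadherin, through which myoblasts adhere before fusion, was at 5.57 and 6.02. Pcdh1, a protocadherin gene, was at 3.69 and 4.20, and neither passed 1.5-fold. Cdh1, the gene of E-cadherin, was at 0.03 and 0.75, 1.65-fold higher, and Cdh10, which encodes a type II cadherin, at -2.46 and -1.51, 1.93-fold higher. Cdh15, the gene of M-cadherin, was not listed. A last member, Col4a3bp, matched by its symbol alone, since it encodes a ceramide transfer protein and no collagen, and was at 3.58 and 4.34.

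Matrix and adhesion genes outside these families were taken from lists. Of 62 further matrix genes, 14 were listed, 10 higher and 4 lower with a median of 0.40, and after centring 7 lay on each side. Npnt, which encodes nephronectin, an integrin ligand of basement membranes, was at 5.01 in siCon and 6.90 in siH19. Ltbp2 was at 2.94 and 3.78, Ctgf, the gene of a matricellular growth factor, at 4.19 and 5.01, and Fras1 at -1.98 and -1.30. Thbs3, encoding a thrombospondin, was at 1.83 and 1.23, and Wisp2 at 1.75 and 0.90. Of 31 genes that process matrix, 6 were listed, with a median of -0.67, and after centring 2 lay above the listed median and 4 below it. Of the 5 past 1.5-fold, 4 were lower. The share that was higher was 20.0%, beside 65.4% of the listed features with a symbol past this fold. Its exact binomial interval over features was 0.505 to 71.6%, which takes in the 65.4%. These 5 features therefore give no clear direction for the list.

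The lower genes that process matrix act on different steps. Leprel1 encodes a prolyl 3-hydroxylase of collagen and was at 0.01 and -0.91. Fap, a surface protease, was at -0.80 and -1.86, Tgm2, which cross-links matrix proteins, at 4.67 and 4.05, and Plat, encoding tissue plasminogen activator, at 4.70 and 3.99. The higher one past 1.5-fold was Pcolce2, the gene of an enhancer of procollagen processing, at 3.13 and 3.73. Of 36 other adhesion receptor genes, 5 were listed, 4 of them higher and 3 above the listed median after centring, and Alcam, at 2.03 and 3.12, passed 1.5-fold. Of 31 genes of focal adhesions and catenins, 6 were listed, 5 of them higher and 4 above the listed median after centring. Of all listed features with a symbol, 60.1% were higher. Fermt2, the gene of the integrin activator kindlin-2, was at 4.97 and 5.88. The lower one was Lims1, which encodes PINCH1, a partner of integrin-linked kinase, at 6.86 and 6.08.

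Muscle differentiation genes were higher in the same comparison. Of 18 myotube marker symbols, 17 were listed in 13 features, all 13 higher also after centring, with a median difference of 0.74 and a summed level of 7735 FPKM in siCon and 12030 FPKM in siH19. None of the 13 was near 0 in either group, the lowest control level being 2.23 log2 FPKM, for Dmd. Of 9 markers of undifferentiated myoblasts only Myf5 was listed, at 3.41 and 3.03, and of 10 fibroblast markers none was, so that the level of such cells is not given by these values. The part of these markers in the differences of the matrix genes was not tested.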

How the data were processed

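Total RNA of siCon and siH19 myotubes (3 libraries per group) was depleted of rRNA, made into stranded libraries and sequenced as pairs of 76 bases. Reads were mapped by the authors to mm10 with TopHat (app 1.0.0; the submitters' processing notes also name TopHat2 2.0.7) and ran Cufflinks and Cuffdiff 2.1.1; the annotation and strand setting are not given in the sources used here. The authors deposited log2 FPKM per group, pooled over libraries and rounded to 2 decimals, for called features alone. Columns that the authors deposited with their log2 fold change and q-value (p-value adjusted for multiple tests) were not used. Depth is unknown, no values per library were analysed here, and no test was run.

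Differences were siH19 minus siCon without a pseudocount, and 1.5-fold was the main limit. Members at or past it were named with both values, as were the 2 most abundant of each family, and other members were accounted for, but some members are not reported here by name. The members and lists were chosen with earlier results of these data known. Alternatives were the fold limit, pseudocounts of 1 and 0.1 FPKM, a minimum of 0 log2 FPKM in the higher group, centring on the listed median, and features left out. Locus starts were read as 0-based and printed from 1, since 484 of 2328 compared starts lay 1 base before an annotated start and 65 on it. Shared bases came from GENCODE M21 (GRCm38) exons, and motifs and identities from RefSeq promoters with Biopython 1.88. Python 3.11.15, numpy 2.4.6, pandas 2.3.3, scipy 1.17.1 and matplotlib 3.10.9 were used, and the counting was tested on simulated data.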

Additional observations from a re-analysis of the deposited data

How the results depend on the processing

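No paired analysis was possible because each group has 1 pooled value, and for the same reason no replicate could be left out. The 24 higher and 6 lower members at 1.5-fold became 47 and 12 without a fold limit, and 9 and 4 at 2-fold. With 1 FPKM added to both groups they became 15 and 3, by construction since the addition shrinks the folds of scarce genes. Centring on the listed median of 0.41 gave 9 higher and 12 lower, and turned the share that was higher from 80.0% to 42.9%. The median difference of 0.50 was 0.49 with a minimum of 0 log2 FPKM in the higher group, 0.42 with 1 FPKM and 0.48 with 0.1 FPKM added, 0.09 after centring, and 0.47 without the Serpinb features, an alternative chosen after the data had been seen. That last one left 18 higher and 6 lower members, or 75.0% higher. Under the alternatives other than centring the share that was higher lay between 69.2 and 83.3%.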

Other observations

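Just outside the Serpinb cluster, 2 listed features lay within 1 Mb of its ends. Mylk4, the gene of a myosin light chain kinase family member, was at 0.99 log2 FPKM in siCon and 2.79 in siH19, a difference of 1.80, and Gmds, which encodes an enzyme of GDP-fucose synthesis, was at 3.55 and 2.98, a difference of -0.57. These genes were picked for their position after the values of the cluster had been seen.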
